A study of Mus musculus with 8 samples.

Results

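The 40 genes described here drive or mark the cell division cycle: 20 act around the G1/S transition, when DNA replication is prepared and carried out, and 20 act in G2 and mitosis. They were chosen by symbol from the 23337 genes of the deposited table. The rule uses no measured value, but the list was drawn up with earlier results of these data known. All 40 were found, and all 40 passed the filter on low values, which asked for a mean of 10 or more normalised reads in the 6 libraries compared.

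The RNA came from cells that were sorted as endothelial (FACS) out of whole E15.5 mouse embryos. Per the series' design text, the animals of every group were Cdh5-CreERT2(PAC);Rosa26fsTRAP transgenic mice, in which the promoter of the endothelial gene Cdh5 drives a Cre recombinase that tamoxifen activates, and Rosa26 carries a Cre-dependent allele. The genotype field of each sample reads wild type. One group came from pregnant females gavaged with tamoxifen at E12.5, the other from females that were not gavaged, so the drug, the gavage and the recombinase cannot be told apart. Each group has 4 samples in the labels. Whether these came from separate litters or embryos, whether embryos were pooled and which markers were sorted on is not stated there, so the p-values cover the spread between samples alone, and that spread may be technical.

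The header of the table is 1 field shorter than its data lines. Columns 3 to 5 are libraries without tamoxifen and columns 7 to 9 are tamoxifen libraries wherever the names are placed, and these 6 libraries, numbered 1 to 3 within each group in table order, form the comparison. Columns 6 and 10 depend on the placement and are shown apart. If the names cover the last 8 value columns, column 6 is without tamoxifen and column 10 with it. If they cover the first 8, column 6 is with tamoxifen and column 10 is unnamed. The first value column, which was not used, would then be a library without tamoxifen. Values given with the names over the first 8 columns leave it out. Values are the authors' normalised read counts per gene. The 6 libraries held 12212472 to 19908404 reads in genes, of which the ribosomal precursor Rn45s took 29.4% to 38.7%, and every member had at least 115 reads in each. All 16 endothelial marker genes were present, with a sum of 10215 to 24914 normalised reads. Macrophage and leukocyte markers were more abundant, at 45592 to 72511 in sum. So were blood progenitor markers, at 57359 to 92418, of which Mpo alone took 34557 to 59463. A value of a cell cycle gene therefore belongs to the sorted mixture. In such bulk samples, fewer cycling cells and less RNA per cycling cell cannot be told apart.

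Entry into S phase is driven by cyclin D and cyclin E kinases, which inactivate the RB family and free E2F transcription factors to switch on replication genes. Mitotic genes are held back in G1 and switched on in G2 by the MuvB complex with B-MYB and FOXM1, which acts through a cell cycle homology region (CHR) often found near CCAAT boxes bound by NF-Y. Dividing endothelial cells, macrophages and blood progenitors of the embryo all use both programmes.

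Promoter elements of both kinds are shown because they are a feature by which the 2 sets of genes differ in sequence, independently of the expression values. In the RefSeq promoter table (GRCm38.p6, 250 bases before to 50 after each start), 33 of the 40 members had a window, 17 of the G1/S and 16 of the G2/M genes. Mcm4, Ccne2, Gins2, Ccna2, Aurkb, Foxm1 and Tpx2 had none in that table. The E2F element was searched as TTTCCCGC, TTTCGCGC, TTTGCCGC or TTTGGCGC, the CHR as TTTGAA or TTCGAA, and the CCAAT box as CCAAT, all on both strands. TTCGAA reads the same on both strands, and E2F matches on opposite strands can overlap each other.

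The 3 named G1/S genes with the highest means among those that hold the E2F letters are shown first, with the letters in capitals on either strand. They are given 5′ to 3′ along the strand of the gene. The Uhrf1 stretch (chr17:56304113-56304150, plus strand) lies in an intron of the GENCODE gene, before a second RefSeq start. The Mcm5 stretch (chr8:75109341-75109382, plus strand) and the Mcm6 stretch (chr1:128359730-128359830, minus strand) lie upstream of the annotated genes. Mcm5 has 2 overlapping matches, and Mcm6 has 3, of which 2 overlap.
Uhrf1: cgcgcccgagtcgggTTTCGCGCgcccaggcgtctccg
Mcm5: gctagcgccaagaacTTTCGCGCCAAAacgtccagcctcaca
Mcm6: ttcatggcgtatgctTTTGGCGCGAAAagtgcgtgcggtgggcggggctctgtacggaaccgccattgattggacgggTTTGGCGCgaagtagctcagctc

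For the G2/M genes, chosen in the same way, capitals mark the CHR and the CCAAT box on either strand. The Mki67 stretch (chr7:135716457-135716582, minus strand) holds 2 CHR and 3 CCAAT matches, and the Top2a stretch (chr11:99024192-99024431, minus strand) holds 4 and 6, both upstream of the annotated gene. The Cenpf stretch (chr1:189688067-189688096, minus strand) spans the start, with 20 of its 30 bases in the annotated 5′ UTR, and holds 1 CHR match. The window of Cenpf also holds 2 CCAAT matches farther upstream, outside the printed stretch.
Mki67: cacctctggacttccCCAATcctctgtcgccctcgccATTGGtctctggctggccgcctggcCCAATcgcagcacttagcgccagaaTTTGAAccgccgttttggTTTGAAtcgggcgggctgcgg
Top2a: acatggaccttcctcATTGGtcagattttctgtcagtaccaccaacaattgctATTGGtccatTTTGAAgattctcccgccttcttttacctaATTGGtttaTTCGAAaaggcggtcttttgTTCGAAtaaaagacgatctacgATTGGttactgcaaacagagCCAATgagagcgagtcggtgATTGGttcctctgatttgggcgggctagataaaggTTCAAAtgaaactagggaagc
Cenpf: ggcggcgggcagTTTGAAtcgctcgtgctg

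The E2F letters were present in 7 of the 17 G1/S genes with a window (41.2%), namely Cdc6, Cdt1, Mcm3, Mcm5, Mcm6, Mcm7 and Uhrf1. They were present in 1 of the 16 G2/M genes (6.25%), Cdk1, and in 2.60% of the 27025 genes of the table. The CHR letters were present in 12 of 16 G2/M genes (75%), in 3 of 17 G1/S genes (17.6%) and in 21.7% of all genes. A CHR together with at least 2 CCAAT boxes was found in 10 of 16 G2/M genes (62.5%), in 2 of 17 G1/S genes (11.8%) and in 2.68% of all genes. A match is a string of letters in this window and was not tested for binding.

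None of the 40 genes passed the test between the groups. The 20 G1/S genes had a median log2 fold change (tamoxifen over no tamoxifen, on the log2(value + 1) scale) of 0.13, with 17 of 20 above 0 and a range of −0.21 to 0.29. The 20 G2/M genes had a median of −0.10, with 18 of 20 below 0 and a range of −0.31 to 0.19. If the 8 names start at the first value column, column 6 is a tamoxifen library. With it in that group, and the first value column left out, the G2/M median turned to 0.028 with 10 of 20 above 0. Over all 13480 genes tested the median was −0.02, and 46.5% were above 0. The median half-width of the members' 95% intervals was 0.29 (0.22 to 0.46).

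By limma with Benjamini-Hochberg adjustment at 0.05, 0 of the 40 members were called, where 6 of all tested genes were (0.0445%). Without tamoxifen library 3 the count over all genes was 1459, without any 1 of the other libraries 2 to 5, and no member was among them. edgeR's quasi-likelihood test and DESeq2 on the recovered reads also called 0 members. At an unadjusted limma p under 0.05, 0 members were higher, against 4.89% of all genes, and 2 were lower, Ccnb1 and Hmmr, against 4.12% of all genes. edgeR and DESeq2 each had 1 member at that level, Ccnb1. The values of the groups did not overlap for 3 members, all lower with tamoxifen (Gins2, Ccnb1 and Hmmr), where 7.62% of all genes were lower without overlap. No member was higher without overlap, where 6.24% of all genes were. These counts are close to or below the shares over all genes.

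**Figure D1:**
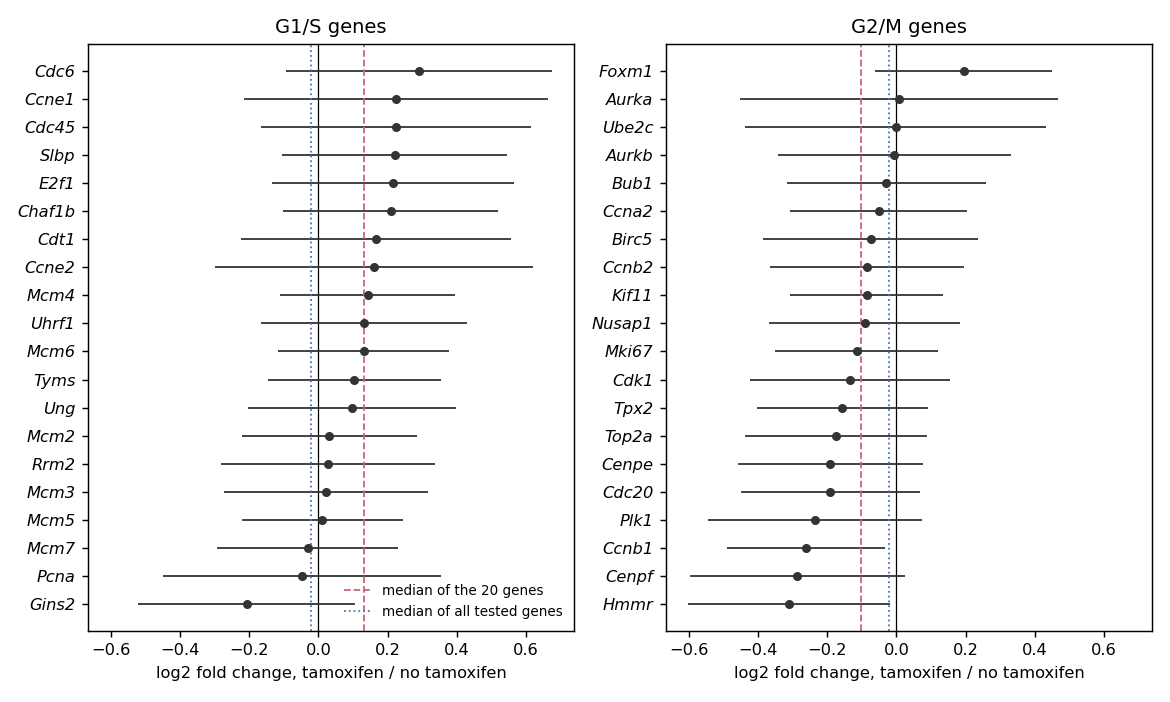
Log2 fold change of each of the 40 genes (x axis, tamoxifen over no tamoxifen, log2(value + 1) scale) with limma's 95% interval, G1/S genes on the left and G2/M genes on the right. The medians (dashed) lie at 0.13 and −0.10 on either side of the median of all tested genes (dotted, −0.02), and only the intervals of Ccnb1 and Hmmr leave out 0.

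Among the G1/S genes, the MCM2-7 helicase subunits had log2 fold changes close to 0. The 6 genes had a median log2 fold change of 0.03, 5 of 6 above 0, and the groups overlapped for all 6. Mcm6 stood at 2767, 3133 and 3112 normalised reads without tamoxifen and at 3409, 2966 and 3501 with it. Mcm4 stood at 1588, 1711 and 1809 and then at 1982, 1674 and 1993. For both genes the second tamoxifen library lay within the range of the libraries without tamoxifen and the others lay above it. The log2 fold changes were 0.13 ± 0.11 (SE) for Mcm6 (limma adjusted p = 0.728) and 0.14 ± 0.11 for Mcm4 (limma adjusted p = 0.708).

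The remaining helicase subunits lay closer still. Mcm2 had 2484, 2871 and 2748 normalised reads without tamoxifen and 2561, 2666 and 3069 with it. Mcm3 had 2459, 2958 and 2832, then 2687, 2485 and 3231. Mcm5 had 3020, 3423 and 3295, then 3219, 3089 and 3508. In all 3 genes the third tamoxifen library was the highest of the 6 and the first library without tamoxifen the lowest. Mcm7 had 2469, 2804 and 2771 without tamoxifen and 2425, 2495 and 2975 with it, so its lowest and highest libraries were both tamoxifen libraries. Mcm7 shares exonic bases with Mir25, Mir93, Ap4m1 and Cops6, and the sources used here do not give whether reads were counted by strand. The 4 log2 fold changes lay between −0.03 and 0.03.

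Loading of that helicase onto origins needs Cdc6 and Cdt1. Cdc6 had 386, 587 and 536 normalised reads without tamoxifen and 560, 598 and 665 with it. Its means were 503 ± 104 and 608 ± 53.0 (SD, n = 3 each), a log2 fold change of 0.29 ± 0.17 (SE; limma adjusted p = 0.623), the highest of the 40. The first library without tamoxifen lay below the rest, and the groups overlapped. Without that library the log2 fold change of Cdc6 was 0.11, and with the names over the last 8 columns it was −0.022. Cdt1 had a log2 fold change of 0.17 ± 0.17 (SE).

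Gins2, a subunit of the GINS complex that joins the helicase with Cdc45, was the only G1/S gene whose groups did not overlap. It had 371, 389 and 381 normalised reads without tamoxifen and 281, 358 and 356 with it, a log2 fold change of −0.21 ± 0.14 (SE; limma adjusted p = 0.661). The first tamoxifen library was the lowest of the 6, and the others lay just below the range without tamoxifen. Leaving out that library gave −0.092, and the names over the last 8 columns gave 0.15. Gins2 (chromosome 8 at 120578633 to 120589304, minus strand, GRCm38) shares 2758 exonic bases with Gse1 on the opposite strand, so reads of the genes may be mixed. Cdc45 had a log2 fold change of 0.23 ± 0.17 (SE), with overlapping groups.

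Pcna, the sliding clamp of the replicative polymerases, had the highest level per kilobase of all 40 genes. It stood at 2420, 2912 and 1918 normalised reads without tamoxifen and at 1931, 2384 and 2667 with it, so that the lowest and the highest value were both in the group without tamoxifen. Its log2 fold change was −0.05 ± 0.18 (SE; limma adjusted p = 0.957). The 95% interval of the change ran from −26.7% to 27.9%. Pseudogenes of Pcna are annotated but have no row in the table.

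Uhrf1, which guides DNA methylation onto newly replicated DNA, had 2673, 3303 and 3382 normalised reads without tamoxifen and 3374, 3062 and 3809 with it. The groups overlapped, and the log2 fold change was 0.13 ± 0.13 (SE; limma adjusted p = 0.776). Chaf1b, a subunit of the chaperone that deposits histones behind the fork, had 299, 349 and 363, then 377, 359 and 433, with a log2 fold change of 0.21 ± 0.14 (SE; limma adjusted p = 0.657). Slbp, which binds the stem-loop of histone mRNAs, had 533, 631 and 596, then 737, 568 and 757, with 0.22 ± 0.14 (SE; limma adjusted p = 0.652). In both genes 2 tamoxifen libraries lay above all libraries without tamoxifen and the second one did not. Leaving out 1 library moved Chaf1b to 0.13, without either the first library without tamoxifen or tamoxifen library 3. It moved Slbp to 0.35 without tamoxifen library 2 and to 0.14 without tamoxifen library 3.

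The transcription factor E2f1 had 528, 521 and 651 normalised reads without tamoxifen and 587, 608 and 787 with it, a log2 fold change of 0.22 ± 0.15 (SE; limma adjusted p = 0.679). The third library of each group was its highest, and without tamoxifen library 3 the value was 0.084. Ccne1 and Ccne2, the E-type cyclins that activate Cdk2, were the genes with the lowest G1/S means. Ccne1 had 123, 124 and 159 without tamoxifen and 131, 164 and 181 with it. Ccne2 had 180, 219 and 141, then 223, 170 and 204, and shares 609 exonic bases with Ints8 on the opposite strand. The groups overlapped for both, with log2 fold changes of 0.23 ± 0.19 for Ccne1 and 0.16 ± 0.20 for Ccne2 (SE).

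The 3 remaining G1/S genes supply DNA precursors or remove uracil from DNA. The log2 fold changes were 0.03 for Rrm2, a subunit of ribonucleotide reductase, 0.10 for the thymidylate synthase Tyms and 0.10 for the uracil glycosylase Ung. A row for the pseudogene Tyms-ps is also in the table, so the division of reads between it and Tyms is uncertain.

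Among the G2/M genes, Ccnb1, which encodes the cyclin that activates Cdk1 at mitotic entry, had the lowest p of the 40 members. It had 838, 889 and 807 normalised reads without tamoxifen and 682, 706 and 725 with it. All 3 tamoxifen libraries lay below all 3 without. The means were 845 ± 41.6 and 704 ± 21.1 (SD, n = 3 each), a change of −16.6% with a 95% interval of −28.8% to −2.25%. The log2 fold change was −0.26 ± 0.10 (SE), with an unadjusted limma p of 0.030 and an adjusted p of 0.508, and the adjusted p ran from 0.176 to 0.992 over the alternative settings. Ccnb1 lies on chromosome 13 at 100778650 to 100786570, on the minus strand.

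The kinase itself and the related cyclins lay nearer to 0. Cdk1 had 728, 791 and 910 normalised reads without tamoxifen and 759, 659 and 792 with it, with overlapping groups and a log2 fold change of −0.13 ± 0.13 (SE; limma adjusted p = 0.768). The log2 fold changes were −0.09 for Ccnb2 and −0.05 for Ccna2, the A-type cyclin that acts from S phase onward. Pseudogenes of Ccnb1 and Ccnb2 are annotated but have no row in the table. Ccna2, Cdc20, Ube2c, Nusap1, Plk1, Foxm1 and Top2a, and among the G1/S genes Slbp and Cdc45, also share exonic bases with other annotated genes.

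Hmmr, which encodes a spindle assembly and hyaluronan-binding protein, had the lowest log2 fold change of the 40. It had 487, 544 and 559 normalised reads without tamoxifen and 476, 383 and 426 with it. The groups did not overlap, but the highest tamoxifen library and the lowest one without tamoxifen were close. The log2 fold change was −0.31 ± 0.13 (SE), with an unadjusted limma p of 0.040 and an adjusted p of 0.534. With the names over the first 8 columns it was −0.0069. Hmmr lies on chromosome 11 at 40701395 to 40733422, on the minus strand.

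Cenpf, a large protein of the outer kinetochore, had 1347, 1277 and 1076 normalised reads without tamoxifen and 1072, 1102 and 865 with it. The third library of each group was its lowest, and the ranges overlapped narrowly. Its log2 fold change was −0.29 ± 0.14 (SE; limma adjusted p = 0.575), −0.18 without tamoxifen library 3 and 0.14 with the names over the first 8 columns. The kinetochore motor Cenpe had −0.19 ± 0.12 (SE). Nusap1, a microtubule-bundling protein, had 467, 526 and 480, then 487, 483 and 415, with −0.09 ± 0.12 (SE; limma adjusted p = 0.846). The spindle motor Kif11 and the spindle factor Tpx2 had −0.09 and −0.16.

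Plk1, the polo-like kinase of mitotic entry and spindle assembly, had 796, 862 and 859 normalised reads without tamoxifen and 591, 766 and 800 with it. The first tamoxifen library was the lowest of the 6, and the groups overlapped by a few reads. Its log2 fold change was −0.23 ± 0.14 (SE; limma adjusted p = 0.622), −0.099 without that library and −0.0022 with the names over the last 8 columns. The other mitotic kinases lay at 0.01 for Aurka, −0.01 for Aurkb and −0.03 for Bub1, and the passenger protein Birc5 at −0.07. Of the genes that drive mitotic exit, the APC/C activator Cdc20 had −0.19 ± 0.11 (SE) and the APC/C ubiquitin-conjugating enzyme Ube2c 0.00 ± 0.19 (SE).

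Foxm1, the transcription factor that activates many G2/M genes, was the G2/M gene with the highest log2 fold change, against the sign of most genes on its list. It had 710, 738 and 865 normalised reads without tamoxifen and 888, 861 and 888 with it. The groups overlapped through the third library without tamoxifen. The means were 771 ± 82.8 and 879 ± 15.8 (SD, n = 3 each), a log2 fold change of 0.19 ± 0.11 (SE; limma adjusted p = 0.620).

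Mki67, the proliferation marker that coats mitotic chromosomes, had the most reads of the 40 genes. It had 9252, 9465 and 9714 normalised reads without tamoxifen and 9279, 8199 and 8801 with it, a log2 fold change of −0.12 ± 0.10 (SE; limma adjusted p = 0.753). Top2a, which untangles replicated chromosomes, had 5799, 6720 and 5315, then 5436, 5279 and 5022, with −0.17 ± 0.12 (SE; limma adjusted p = 0.661). In both genes 2 of the 3 tamoxifen libraries lay below every library without tamoxifen, and 1 lay among them.

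**Figure D2:**
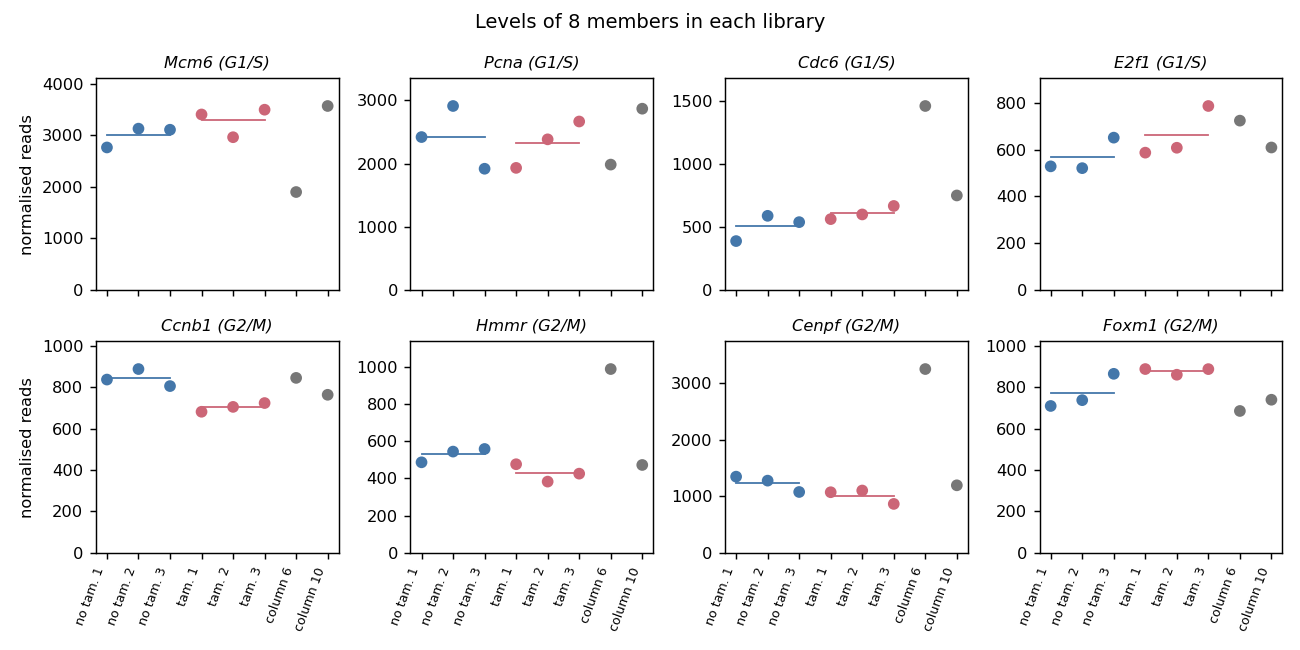
Normalised reads (y axis, from 0) of 4 G1/S genes (top) and 4 G2/M genes (bottom) in each library, with lines at the group means. Ccnb1 and Hmmr are the panels without overlap between the 3 libraries without tamoxifen (blue) and the 3 with it (red), and the grey points of column 6 stand above both groups for Cdc6, Hmmr and Cenpf.

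Per kilobase of the GENCODE principal transcript, mean levels over the 6 libraries ran from 63.1 normalised reads per kilobase for Ccne2 and 73.6 for Ccne1 to 1563 for Pcna. Mcm6 (1082) and Top2a (1072) came next, then Mcm5 (964), Mcm3 (916), Uhrf1 (911), Mki67 (906) and Mcm7 (897). The neighbours from Mcm3 to Mcm7 lay within the spread of single genes between libraries, where the highest of the 6 libraries exceeded the lowest by 1.14-fold (Kif11) to 1.72-fold (Cdc6). With the union of all exons as length Pcna stayed first at 988 and Mki67 came second at 906. Mki67, with a principal transcript of 10.1 kilobases, had the most reads but lay below 3 of the helicase subunits per kilobase of that transcript.

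The contrast of the phases does not depend on how a library is scaled, since any factor common to a library cancels. The mean log2(value + 1) of the 20 G2/M genes minus that of the 20 G1/S genes was 0.25, 0.12 and 0.22 in the libraries without tamoxifen. It was 0.04, 0.07 and −0.17 in the tamoxifen libraries, all below those without. The group means were 0.20 ± 0.07 and −0.02 ± 0.13 (SD, n = 3 each), a difference of −0.22 in log2 against a pooled SD of 0.10. No p is given, because the genes were chosen with results of these data known. Without tamoxifen library 3, the lowest, the difference was −0.15, and leaving out each library in turn gave −0.27 to −0.15. It was −0.13 with the names over the first 8 columns and −0.29 with the names over the last 8. In the former, column 6 is a tamoxifen library that lies above all those without. The value of column 6 includes Mki67 at 50702 normalised reads, 5.22 times the highest library without tamoxifen.

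**Figure D3:**
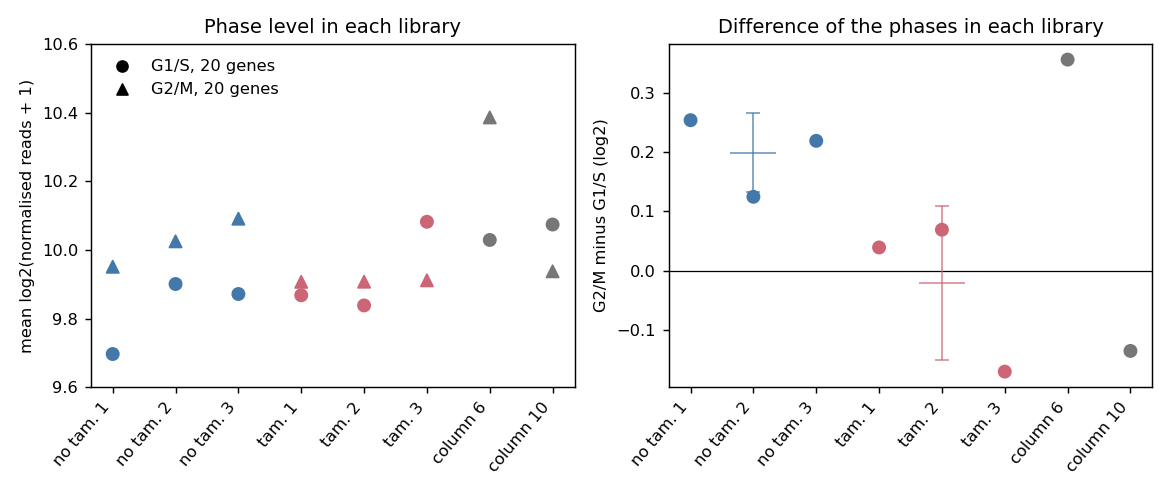
Left, mean log2(normalised reads + 1) of the 20 G1/S (circles) and 20 G2/M genes (triangles) in each library, and right, their difference, with group means and SD. The difference is 0.12 to 0.25 in the 3 libraries without tamoxifen (blue) and −0.17 to 0.07 in the 3 tamoxifen libraries (red), with columns 6 and 10 (grey) at 0.36 and −0.14.

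Both phases contributed to that difference. The G2/M mean was 9.95, 10.03 and 10.09 without tamoxifen and 9.91 in each tamoxifen library. For the G1/S mean the values were 9.70, 9.90 and 9.87, then 9.87, 9.84 and 10.08, so the groups overlapped. As a share of reads outside Rn45s, the G2/M genes took 0.340% to 0.356% without tamoxifen and 0.309% to 0.336% with it, and the G1/S genes 0.285% to 0.328% and 0.312% to 0.353%. The G1/S median log2 fold change was 0.07 both without library 1 of the group without tamoxifen and without tamoxifen library 3. Without library 3 of the group without tamoxifen, 7 of the 20 G2/M genes had a positive log2 fold change.

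No marker gene of another cell type passed the limma threshold. At an unadjusted limma p under 0.05 there were 10 mesenchymal and fibroblast genes and 9 cartilage genes, all higher. Of these, 4 and 5 did not overlap. At that level 3 mural, 2 blood progenitor and 1 erythroid gene were also higher, and 1 blood progenitor and 1 macrophage gene were lower. Over all tested genes 4.89% were higher and 4.12% lower at that level, and 6.24% were higher without overlap. The 12 tested mesenchymal and fibroblast genes all had positive log2 fold changes (median 3.01), with summed levels of 2155 to 4533 normalised reads without tamoxifen and 4644 to 87676 with it. The 10 cartilage genes had a median of 2.92 and sums of 720 to 965 and 1015 to 19834. All 16 macrophage and leukocyte genes had negative log2 fold changes (median −0.27), with sums of 59638 to 66841 and 45592 to 72511. Of 16 endothelial genes 6 were positive (median −0.06), of 8 erythroid genes 4 (median 0.04) and of 9 mural genes 8 (median 1.38). Of 10 blood progenitor genes 6 were positive (median 0.04, range −0.43 to 1.25), with 2 higher and 1 lower without overlap. The erythroid genes Hba-a1 and Hba-a2 were listed at 0 in all 6 libraries. The part of these cells in the cell cycle values was not tested.

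The tamoxifen libraries differed from each other in these markers. Libraries 1 and 2 had mesenchymal scores (mean log2 over the list) of 9.80 and 10.20, and library 3 had 6.35, near the 5.38 to 6.49 of the libraries without tamoxifen. Its macrophage score of 11.53 was the highest of the 6, where libraries 1 and 2 had 10.88 and 10.82. Its endothelial score of 8.83 was the lowest of the 6, where libraries 1 and 2 had 10.07 and 10.13 and the libraries without tamoxifen 9.39 to 10.03. The G2/M mean was 9.91 in all 3, while library 3 had the highest G1/S mean and the lowest phase difference.

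The wider set of 9 cell cycle lists, 179 tested genes in all, had 0 genes past the limma threshold, and at an unadjusted p under 0.05 it had 3 higher and 7 lower, shares below the 4.89% and 4.12% of all genes. The spindle and kinetochore lists lay on the negative side. Of 24 mitotic kinesin, spindle and cytokinesis genes, 22 had a negative log2 fold change (median −0.17) and 11 were lower without overlap (45.8%, where all tested genes gave 7.62%). Of 26 spindle checkpoint and kinetochore genes, 23 were negative (median −0.18) and 4 were lower without overlap. These lists share the G2/M programme with the members and the same 6 libraries, so they are not independent of them.

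Kif20b, a kinesin of cytokinesis, had 657, 742 and 556 normalised reads without tamoxifen and 496, 487 and 478 with it. All tamoxifen libraries lay below all others, with a log2 fold change of −0.41 ± 0.13 (SE; limma adjusted p = 0.468). Knl1, the kinetochore scaffold listed as Casc5 in the table, had 855, 851 and 864, then 745, 650 and 631, with −0.35 ± 0.11 (SE; limma adjusted p = 0.462), and −0.027 with the names over the first 8 columns. For Knl1, too, all tamoxifen libraries lay below all others. Of the genes with a positive sign in these lists, those of lowest p were Kntc1, a checkpoint protein at the kinetochore, with a log2 fold change of 0.17, and Cenpm, a kinetochore subunit, with 0.26.

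The other mitotic lists lay nearer to all genes. Of 24 genes of mitotic entry and exit, 14 were negative (median −0.05), with the inhibitory kinase Pkmyt1 at 0.35 and Mastl, the kinase that restrains a mitotic phosphatase, at −0.29. Of 18 condensin and cohesin genes, 13 were negative (median −0.05). The cohesin ATPase gene Smc1a had 2297, 2731 and 2107 normalised reads without tamoxifen and 2015, 2007 and 1809 with it, with no overlap and a log2 fold change of −0.28 ± 0.12 (SE; limma adjusted p = 0.541), or −0.18 without library 2 of the group without tamoxifen. The condensin subunit Ncapd3 had 0.13.

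Upstream of S phase, 16 of 22 E2F, RB and G1 kinase genes had positive log2 fold changes (median 0.06; 46.5% of all genes were positive), and 4 were higher without overlap, where 6.24% of all genes were. E2f2 had 459, 512 and 540 normalised reads without tamoxifen and 613, 679 and 678 with it, a log2 fold change of 0.38 ± 0.11 (SE; limma adjusted p = 0.462). All 3 tamoxifen libraries lay above the 3 others. With the names over the last 8 columns, which puts column 6 in the group without tamoxifen, the log2 fold change of E2f2 was −0.65. Ccnd2 and Ccnd3, D-type cyclins, had 0.33 and 0.31 and also did not overlap, while Ccnd1 had −0.06 and E2f3 −0.14. In nucleotide synthesis 9 of 11 genes were positive (median 0.08), with the p53-induced reductase subunit Rrm2b at 0.38 (0.24 without tamoxifen library 1) and Umps, of pyrimidine synthesis, at −0.08.

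The replication machinery beyond the members showed no lean to one side. Of 20 origin licensing and firing genes, 9 were positive and 11 negative (median −0.02), with the origin-firing kinase Cdc7 at 0.32 and the licensing inhibitor Gmnn at −0.26. Of 28 polymerase and fork genes, 14 were positive and 14 negative (median 0.01), with the polymerase subunit Pold1 at 0.21 and Rpa3, of the single-strand binding complex, at −0.38, or −0.17 without library 2 of the group without tamoxifen and 0.043 with the names over the last 8 columns. None of these 4 genes passed the threshold.

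Of 6 tested CDK inhibitor genes, 4 had positive log2 fold changes (median 0.08). Cdkn1c, which encodes p57, had 538, 598 and 303 normalised reads without tamoxifen and 1298, 2283 and 296 with it. Tamoxifen libraries 1 and 2, those with high mesenchymal and cartilage markers, were high, and library 3 was the lowest of the 6. The log2 fold change was 1.06 ± 0.65 (SE; limma adjusted p = 0.636). Without tamoxifen library 3 it was 1.90 with a limma adjusted p of 8.55e-05, within a range of 8.55e-05 to 0.992 over the alternative settings. Without tamoxifen library 2 it was 0.43, with column 10 added 0.54, and with the names over the last 8 columns −0.36.

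The other inhibitors gave smaller values. Cdkn1a, which encodes p21, had 1400, 1357 and 1249 normalised reads without tamoxifen and 1378, 1186 and 1821 with it, and Cdkn1b, which encodes p27, had 514, 472 and 395, then 465, 518 and 450. Their groups overlapped, with log2 fold changes of 0.11 and 0.06. Cdkn2c, which encodes p18, had 86.8, 68.1 and 65.4, then 43.0, 56.1 and 54.0, with no overlap and a log2 fold change of −0.51 ± 0.24 (SE; limma adjusted p = 0.567).

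**Figure D4:**
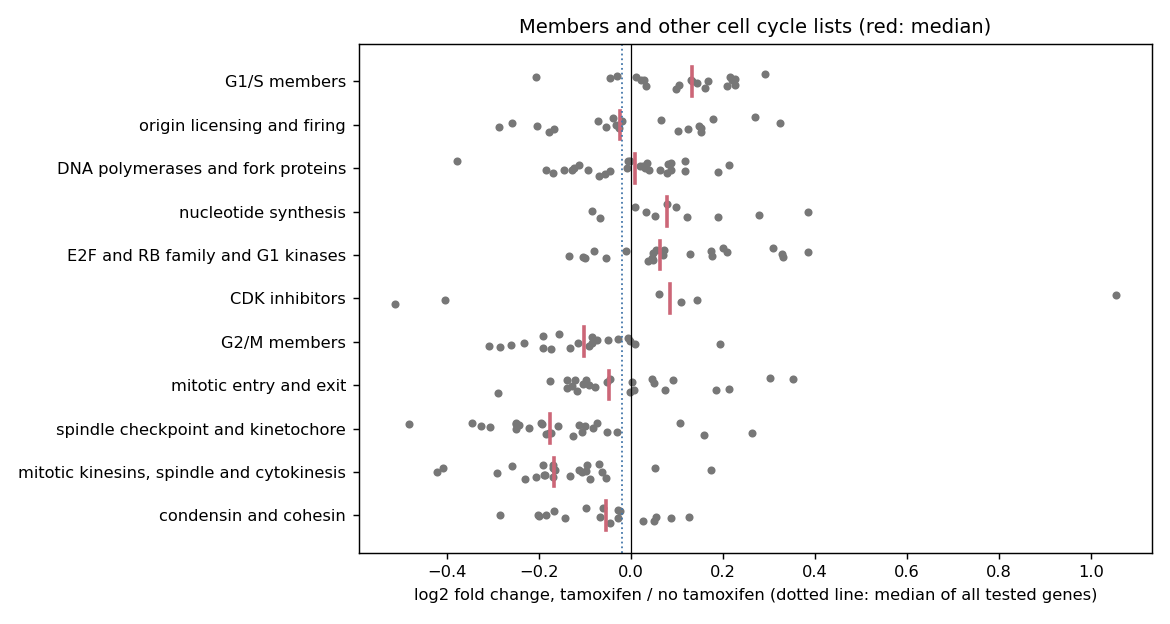
Log2 fold change (x axis, tamoxifen over no tamoxifen) of each tested gene of the member groups and of the 9 other cell cycle lists (rows), with the median of each row in red and that of all genes as a dotted line at −0.02. The rows of spindle checkpoint and kinetochore genes (median −0.18) and of mitotic kinesins, spindle and cytokinesis (−0.17) sit farthest below 0, and the 3 rows of licensing, polymerase and entry or exit genes spread around it.

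Column 6, shown apart, did not resemble the other libraries. Its values had a Spearman rho across genes of 0.862 to 0.901 with the 6 libraries, which had 0.970 to 0.983 among themselves. It held 8695745 reads in genes. Its phase difference of 0.36 was above those of all other columns, and G2/M genes took 0.836% of its reads outside Rn45s. Mki67 stood at 50702 normalised reads, 5.22 times the highest library without tamoxifen, and Top2a at 7598. The 20 G2/M genes summed to 80295 normalised reads in this column, so their share rests largely on Mki67. The phase difference of column 6 includes Mki67 and was not computed without it. Cenpf stood at 3253, Cenpe at 2531 and Hmmr at 989, each above all 6 libraries, while Plk1, at 443, and Cdk1, at 608, were below all 6.

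In G1/S genes column 6 was as uneven. Cdc6 stood at 1459 normalised reads and Ccne1 at 464, above all 6 libraries, and Gins2 and Ung, at 161 each, were below all 6. Of the helicase subunits, Mcm6 at 1900, Mcm4 at 1471 and Mcm3 at 2343 were below all 6 libraries, and Mcm2 at 2549, Mcm5 at 3072 and Mcm7 at 2797 lay among them. Its markers differed beside these values. The endothelial score was 7.58, where the 6 libraries had 8.83 to 10.13, and the macrophage score was 4.96, where they had 10.82 to 11.53. The blood progenitor score was 6.12 against 10.5 to 10.9, and the erythroid score 11.64 against 6.27 to 6.97. The mesenchymal score was 12.44 against 5.38 to 10.20, and the cartilage score 11.88 against 4.70 to 9.38. E2f2 stood at 9089, against 459 to 679. The part of other cell types in these values was not tested.

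Column 10 had a Spearman rho of 0.968 to 0.982 with the 6 libraries. Its endothelial score was 8.02, below the 8.83 to 10.13 of the 6 libraries, and its macrophage score was 11.25. Its 40 members lay between 0.563 times (Ube2c) and 1.30 times (Slbp) the highest library without tamoxifen. Its phase difference was −0.14, near the −0.17 of tamoxifen library 3 and below the 0.04 and 0.07 of tamoxifen libraries 1 and 2. Its mesenchymal score of 6.12 was near the 6.35 of tamoxifen library 3, where libraries 1 and 2 had 9.80 and 10.20. That score also lay within the 5.38 to 6.49 of the libraries without tamoxifen. Added to the tamoxifen libraries, column 10 gave a phase contrast of −0.25, a G1/S median of 0.16 and a G2/M median of −0.11, with 0 members called.

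**Figure D5:**
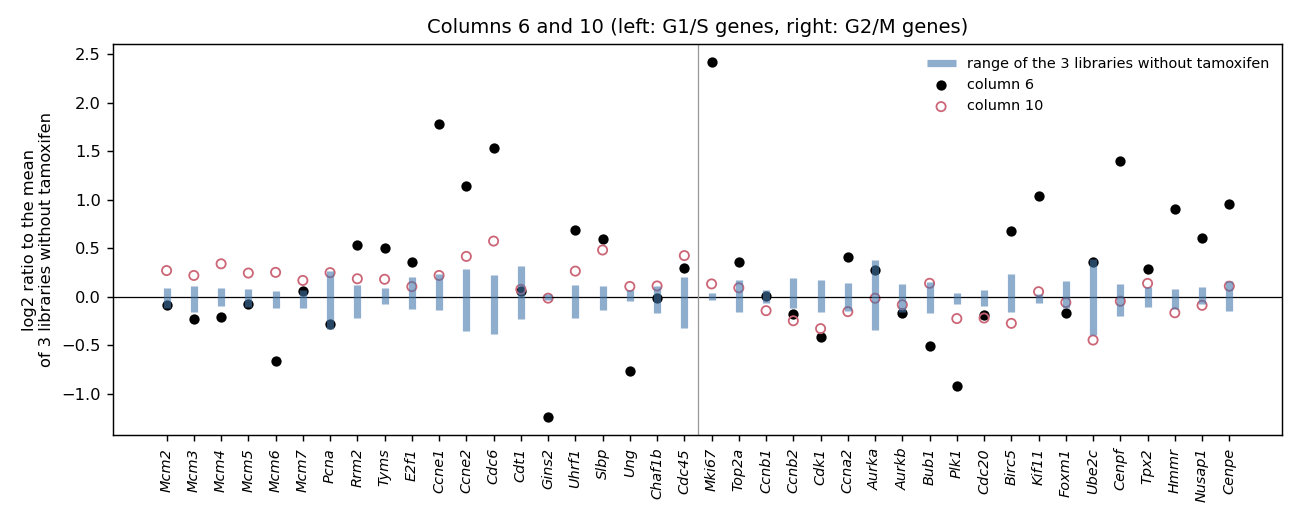
Log2 ratio of columns 6 (filled) and 10 (open) to the mean of the 3 libraries without tamoxifen (y axis) for each of the 40 genes, with the range of those 3 libraries as a blue bar. Column 6 departs in both directions, with Mki67 highest at 50702 and Gins2 lowest at 161 normalised reads, while column 10 stays near the bars.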

How the data were processed

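The deposited table gives a signal per gene symbol: read counts that the authors normalised. STAR, HTSeq 0.11.2, DESeq2 and the builds hg38 and mm10 are named in the submitters' processing notes, without roles. In all columns used, 100% of values were whole multiples of 1 step (tolerance 0.001 reads), so whole reads were recovered for depth and for count tests as alternatives. 1 value column, the first, was not used.

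Genes with a mean of at least 10 over the 6 libraries (13480) were tested with limma 3.58.1 (R 4.3.3) on log2(value + 1), with a mean-variance trend and group as the only term. P-values were adjusted by Benjamini-Hochberg over all 13480 genes, with a threshold of 0.05. The scale understates the change of low genes. edgeR 4.0.16 (TMM) and DESeq2 1.42.0 were alternatives, beside other pseudocounts, filters, scalings, header placements and leaving out libraries. The limma script was tested on simulated counts, with larger fold changes than any member had. That test does not show whether changes as small as those of the members would be found.

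The members and lists were chosen with earlier results of these data known. Named with all values were the 5 members of lowest p, the 2 highest and the 2 lowest means per phase and a fixed set of core genes. Of the other lists, the gene of lowest p in each direction was named, with Cdkn1a, Cdkn1b, Cdkn1c and Ccnd1. Ccnd2 and Ccnd3 were named after their values were seen. 338 of 340 list symbols were found, Hbb-bt and Ahsp not. Coordinates and lengths are from GENCODE M21 (GRCm38), promoters from RefSeq (GRCm38.p6), 1-based.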

Additional observations from a re-analysis of the deposited data

Results flagged for a closer look

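Column 6, whose group depends on the placement of the header, held 5 members above 2 times the highest library without tamoxifen, a fold chosen after the data were seen. Mki67 stood there at 50702 normalised reads, 5.22 times that library. Ccne1 stood at 464 (2.92 times), Cdc6 at 1459 (2.49 times), Cenpf at 3253 (2.41 times) and Kif11 at 3251 (2.005 times). Column 10 held no such member. Outlying libraries were not tested for within groups of 3.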

How the results depend on the processing

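No member was called in any of the 17 alternative settings, where the lowest adjusted p of a member lay between 0.170 and 0.992. The G1/S median stayed above 0 and the phase difference below 0 in all 17. The filters, the Rn45s scaling and the replicate block could not move the phase difference, which stayed at −0.22. Header placements and leaving out libraries could move it, and gave −0.29 to −0.13. Calls over all genes, 6 in the main comparison, were 275 with DESeq2, 0 with the names over the first 8 columns, and 2 to 1459 when 1 library was left out, the 1459 without tamoxifen library 3. The other cell cycle lists had 0 to 2 calls when 1 library was left out, the 2 being Cdkn1c and Ccnd2 without tamoxifen library 3. Fitted with a replicate block, 21 genes were called. Libraries with the same number correlated at 0.20, 0.04 and 0.34 in their deviations from the group means. Those with unlike numbers correlated at −0.33 to 0.33. These values do not settle whether the libraries are paired, and the numbers were not taken as pairs. The G2/M median was −0.19 with the names over the last 8 columns and 0.028 with the names over the first 8. With the names over the last 8 columns, the log2 fold change was −0.022 for Cdc6, 0.15 for Gins2, 0.043 for Rpa3, 0.27 for Umps, −0.65 for E2f2, −0.36 for Cdkn1c, −0.076 for Cdkn1b, −0.15 for Kntc1 and −0.14 for Ncapd3. With the names over the first 8 it was 0.14 for Cenpf and −0.35 for Cdkn1a. When 1 library was left out, Ccnd1 ran from −0.15 to 0.022, Cdkn1b from −0.046 to 0.14 and Cdkn1a from −0.061 to 0.25. The causes were not tested. Every member had at least 115 reads in each library, and the number of libraries, 3 per group, also limits the precision.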

Other observations

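Transcript length, looked at after the values were seen, went with small shifts over all genes. The median log2 fold change was −0.07 for the 3013 genes with a principal transcript under 2 kilobases and 0.03 for the 1492 of 6 kilobases or more. Among the G2/M genes it was −0.04 for the 6 genes under 2 kilobases and −0.19 for the 3 genes of 6 kilobases or more, Mki67, Cenpf and Cenpe. The G1/S genes all had principal transcripts under 4 kilobases, with medians of 0.21 for the 3 shortest and 0.13 for the other 17.

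The 7 G1/S genes with E2F letters in their RefSeq window had log2 fold changes from −0.03 for Mcm7 to 0.29 for Cdc6. The 12 G2/M genes with the CHR letters in their window ran from −0.31 for Hmmr to 0.01 for Aurka. The 4 whose window did not hold those letters, Birc5, Ccnb1, Cenpe and Nusap1, ran from −0.26 to −0.07.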
